A study of Mus musculus with 12 samples.

Results

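The cell cycle and mitosis genes are 54 named genes out of the 56735 gene names of a count table from sorted brain macrophages. They were chosen as genes known to act in the G1, S and mitotic phases, but with earlier results of these data already known. The question was whether macrophages that had been depleted and had come back still showed transcripts of dividing cells 8 weeks later, and in which libraries. A gene was tested only where it reached 10 counts in 4 or more of the 12 libraries, and 51 of the 54 members did. Kif11, Kif20a and Ncapg did not and are given by their counts alone.

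RNA was sequenced in bulk from CD206+ cells that were sorted from mouse brains after the choroid plexuses had been removed. These cells, called subdural CNS-associated macrophages or sdCAMs, line the leptomeninges and the spaces around vessels. All mice were Mrc1CreERT2/CreERT2:R26tdT/tdT and had received tamoxifen 4 weeks before treatment, so cells that expressed Mrc1 (the CD206 gene) at that time, and their daughters, could carry the tdTomato (tdT) reporter. The 3 groups of 4 libraries were tdT+ sdCAMs of mice given vehicle, tdT+ sdCAMs of mice given BLZ945, and tdT- sdCAMs of mice given BLZ945. BLZ945 is an inhibitor of the CSF-1 receptor that enters the brain, and it was given at 200 mg/kg for 7 days with sorting 8 weeks later. Each library is named by its mouse, which was F1, F2, M1 or M2 in every treatment. The tdT+ and tdT- libraries of BLZ945 mice with the same label came from the same mouse, whereas vehicle mice were other animals. The labels give no age. A tdT- sdCAM need not have come from the blood, because the reporter marks only cells in which the Mrc1-driven Cre had acted.

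A cell that enters division first raises D-type cyclins, which with Cdk4 and Cdk6 release E2F factors from the retinoblastoma protein. E2F factors switch on the genes of DNA replication, such as the Mcm helicase subunits and the enzymes that make deoxynucleotides. Later, the DREAM and MuvB complexes, with B-Myb and FoxM1, control genes of the mitotic spindle, its kinases and its checkpoint, largely through promoter elements called CHR and CCAAT. In the resting brain, most macrophages are long-lived and rarely divide.

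The promoters of 4 members are printed to show these elements beside the members that carry them. Aurka and Plk1 encode mitotic kinases that were called in the comparisons, Mki67 encodes the Ki-67 protein widely used to stain dividing cells, and Mcm5 encodes a helicase subunit of the S phase. Each window is from RefSeq on GRCm38.p6, runs 5′ to 3′ along the gene and holds 300 bases, of which 250 lie before the start of the gene and 50 after it. Capitals mark the matches on either strand to the CHR element, spelled TTTGAA or in another form TTCGAA, to the CCAAT element, and to E2F cores. The E2F cores searched were TTCCCGC and in other forms TTCGCGC and also the form TTGGCGC. In Mcm5, E2F cores overlap each other. The windows lie at chr2:172370521-172370820 on the minus strand (Aurka), chr7:122159185-122159484 on the plus strand (Plk1), chr7:135716330-135716629 on the minus strand (Mki67) and chr8:75109259-75109558 on the plus strand (Mcm5).
Aurka: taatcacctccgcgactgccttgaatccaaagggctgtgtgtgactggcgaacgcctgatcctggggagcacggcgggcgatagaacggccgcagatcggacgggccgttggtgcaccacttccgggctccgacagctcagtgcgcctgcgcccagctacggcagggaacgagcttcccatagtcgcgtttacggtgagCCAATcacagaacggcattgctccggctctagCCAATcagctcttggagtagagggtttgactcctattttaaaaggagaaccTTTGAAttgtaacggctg
Plk1: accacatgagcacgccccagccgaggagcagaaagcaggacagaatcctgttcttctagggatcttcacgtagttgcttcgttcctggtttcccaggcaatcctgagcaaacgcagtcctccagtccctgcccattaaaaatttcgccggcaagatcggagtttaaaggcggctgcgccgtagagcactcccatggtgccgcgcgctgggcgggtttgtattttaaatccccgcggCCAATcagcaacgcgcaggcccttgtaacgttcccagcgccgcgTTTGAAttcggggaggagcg
Mki67: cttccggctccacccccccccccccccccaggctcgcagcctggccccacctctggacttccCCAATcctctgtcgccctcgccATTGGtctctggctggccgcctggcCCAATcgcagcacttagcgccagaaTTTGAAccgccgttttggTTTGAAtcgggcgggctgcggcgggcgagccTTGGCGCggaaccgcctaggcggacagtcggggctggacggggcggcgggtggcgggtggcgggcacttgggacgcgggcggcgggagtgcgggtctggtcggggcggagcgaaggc
Mcm5: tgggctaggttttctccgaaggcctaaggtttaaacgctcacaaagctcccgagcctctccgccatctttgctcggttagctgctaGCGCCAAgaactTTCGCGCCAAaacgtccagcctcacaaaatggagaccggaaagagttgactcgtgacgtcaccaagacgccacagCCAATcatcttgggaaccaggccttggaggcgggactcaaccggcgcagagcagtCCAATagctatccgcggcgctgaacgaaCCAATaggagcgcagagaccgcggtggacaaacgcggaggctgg

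Both mitotic kinases carried CHR and CCAAT, with 1 CHR and 2 CCAAT matches in Aurka and 1 of each in Plk1. Mki67 held 2 CHR, 3 CCAAT and 1 E2F core. Mcm5 held no CHR match, 3 CCAAT and 3 E2F cores. RefSeq windows were given for 43 of the 54 members, as 48 windows. Among the 16 windows of the mitotic kinase, checkpoint, spindle and centromere members, 81.3% held both CHR and CCAAT, beside 7.53% of all 32851 windows. Among the 14 windows of the licensing, helicase and nucleotide members, 57.1% held an E2F core, beside 8.07% of all windows, and 21.4% held CHR, beside 19.2%. None of the 9 windows of G1 members held CHR. A match of letters is a description of the window and was not tested as a binding site.

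The 12 libraries held between 19969308 and 23395058 counts. All 10 macrophage markers examined, among them Csf1r and Mrc1, had at least 10 counts in every library. Their sum was 224800 to 295500 normalised counts in tdT- libraries, with F2 lowest, and 344700 to 446900 in tdT+ libraries. The reporter entry tdTomato had 0 counts in all 12 libraries, so it could not be used to check the sort. The tdT- library F2 stood apart. It carried granulocyte and granulocyte precursor transcripts that the others lacked, with 9559 normalised counts of Elane (neutrophil elastase) against at most 16.6 elsewhere, and 131900 of S100a8 against at most 18.4. Of 12 neutrophil markers, 11 reached 10 counts in F2 and their sum was 452600 normalised counts, against 6810 to 22180 in the other 11 libraries. Without Mmp9 and Csf3r the sum was 445400 in F2, against 0.92 to 93.9 in the other 11 libraries. Its 7 granulocyte precursor markers all reached 10 counts and summed to 37340 normalised counts, whereas in the other 3 tdT- libraries all 7 were at 0. Its 6 monocyte markers summed to 51210, against 901 to 6650 in the other 11 libraries. Its 10 erythroid markers summed to 37330, against 8.44 to 100.1 in the other tdT- libraries and up to 15880 in tdT+ libraries. The 6 stem and progenitor markers, of which Cd34 gave most of the counts, summed to 1881 to 5027 in the tdT- libraries, M2 with 4406 among them, and to 274 to 706 in the tdT+ libraries. Among them, Gata2 was at 114 in the tdT- library M2, 3.77 in F2 and 0 in all other libraries. Kit was highest in the tdT- library F2 (185) and at 27.7 in M2. The 7 microglia markers summed to between 240100 and 505600 normalised counts in the tdT- libraries and to between 64170 and 124500 in the 8 tdT+ libraries, and all 4 tdT- libraries were above all tdT+ libraries. The part of these cell types in the results on the cycle was not tested, and results on tdT- libraries are given with and without F2.

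The number of members that reached 10 counts differed between libraries, and most in the tdT- group. It was 47, 45, 50 and 39 of 54 in the vehicle libraries F1, F2, M1 and M2. It was 33, 36, 34 and 37 in the BLZ945 tdT+ libraries, each below every vehicle library. In the tdT- libraries F1, F2, M1 and M2 it was 36, 54, 30 and 46. The tdT- group thus contained both the library with all members and the library with the fewest. All 8 G1 members reached 10 counts in every library except the tdT- library M2, where Cdkn1b was at 0. The differences were widest among the 18 mitotic kinase, checkpoint, spindle and centromere members, of which 9 to 16 reached 10 counts in vehicle libraries and 4 to 7 in BLZ945 tdT+ libraries. In the tdT- libraries this number was 7 in F1, 18 in F2, 4 in M1 and 15 in M2.

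**Figure D1:**
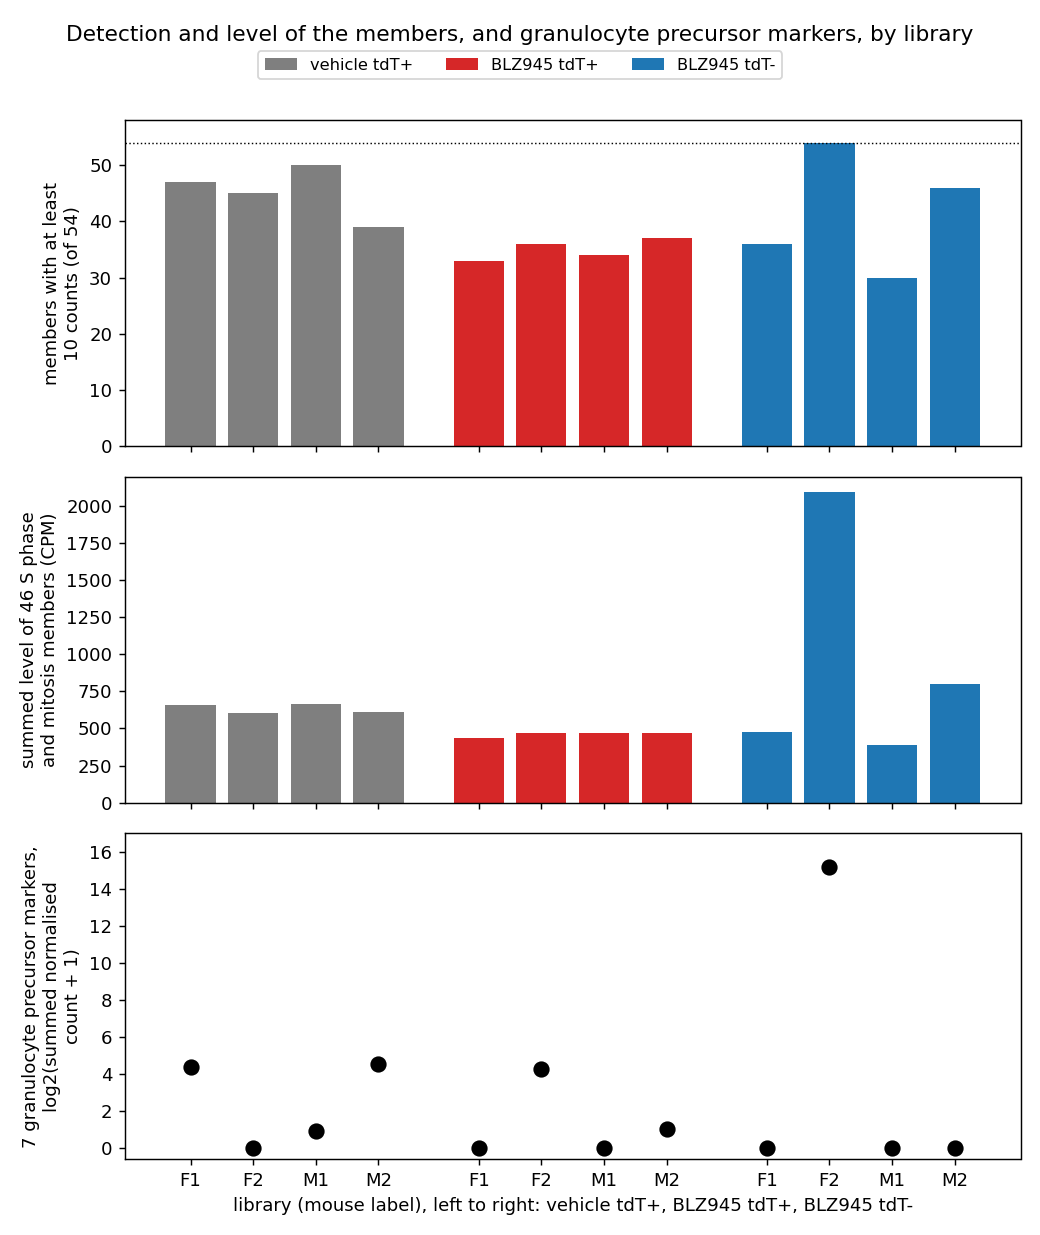
Number of members with at least 10 counts (upper bars, dotted line at 54), summed CPM (counts scaled to the same total in each library) of the 46 S phase and mitosis members (middle bars) and log2 of the summed normalised count plus 1 of 7 granulocyte precursor markers (lower points), with 1 bar or point for each of 12 libraries. The tdT- library F2 is highest in all panels, while the tdT- library M2 has 46 members and granulocyte precursor markers at 0.

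Counts between 1 and 9 were rare, whereas counts of 0 were not. Of the 648 values of 54 members in 12 libraries, 145 were 0, 16 were between 1 and 9 counts and 487 were at least 10. The libraries were made from small amounts of RNA with amplification by PCR, so a count is not an independent molecule and floors cover counting error only. The floor used for a 0 was 3 counts in each library, which was 2.94 on the normalised scale as a mean over the BLZ945 tdT+ libraries. A 0 therefore means only that no read of a transcript was counted. Whether such a transcript was absent or was lost before amplification was not tested. Folds given below against this floor are bounds for counting error only. In bulk libraries, fewer cells with a transcript and less of it per cell cannot be told apart.

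The summed level of the 46 S phase and mitosis members, leaving out the G1 members, also separated the tdT+ groups, but the order of libraries was not that of the number detected. It was 657, 605, 662 and 613 CPM in the vehicle libraries (634 ± 29.6, SD, n = 4), and 433, 472, 469 and 467 in the BLZ945 tdT+ libraries (460 ± 18.5). The BLZ945 tdT+ libraries thus lay closely together and below all vehicle libraries. In the tdT- libraries it was 475, 2089, 390 and 797 in F1, F2, M1 and M2 (938 ± 787). Without F2 the tdT- mean was 554 ± 215 (n = 3), and M2 alone was above the vehicle range. Of the 46 members, 39 reached 10 counts in the tdT- library M2, and 39, 37, 42 and 31 in the vehicle libraries. Leaving out Hmgb2, Stmn1 and Pcna, which many resting cells also express, the sums were 477 to 548 in vehicle, 341 to 392 in BLZ945 tdT+ and 386, 1610, 286 and 649 in tdT- libraries. The sums over the 8 G1 members ranged from 349 to 454 in tdT+ libraries and from 313 to 576 in tdT- libraries.

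A count of members above all 8 tdT+ libraries set the 4 tdT- libraries beside each other. In F2, 41 of the 54 members (75.9%) were higher than in any tdT+ library, where 18.1% of the 13724 genes tested were. In M2 it was 23 members (42.6%), beside 18.8% of genes. In F1 it was 9 members (16.7%), beside 17.4%, and in M1 4 members (7.41%), beside 19.2%. The share in F1 was near its background and that in M1 below it. F2 was the highest of the 12 libraries for 36 members. When F2 was left out, M2 was the highest of the remaining 11 for 20 members, 19 of them S phase or mitosis members.

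**Figure D2:**
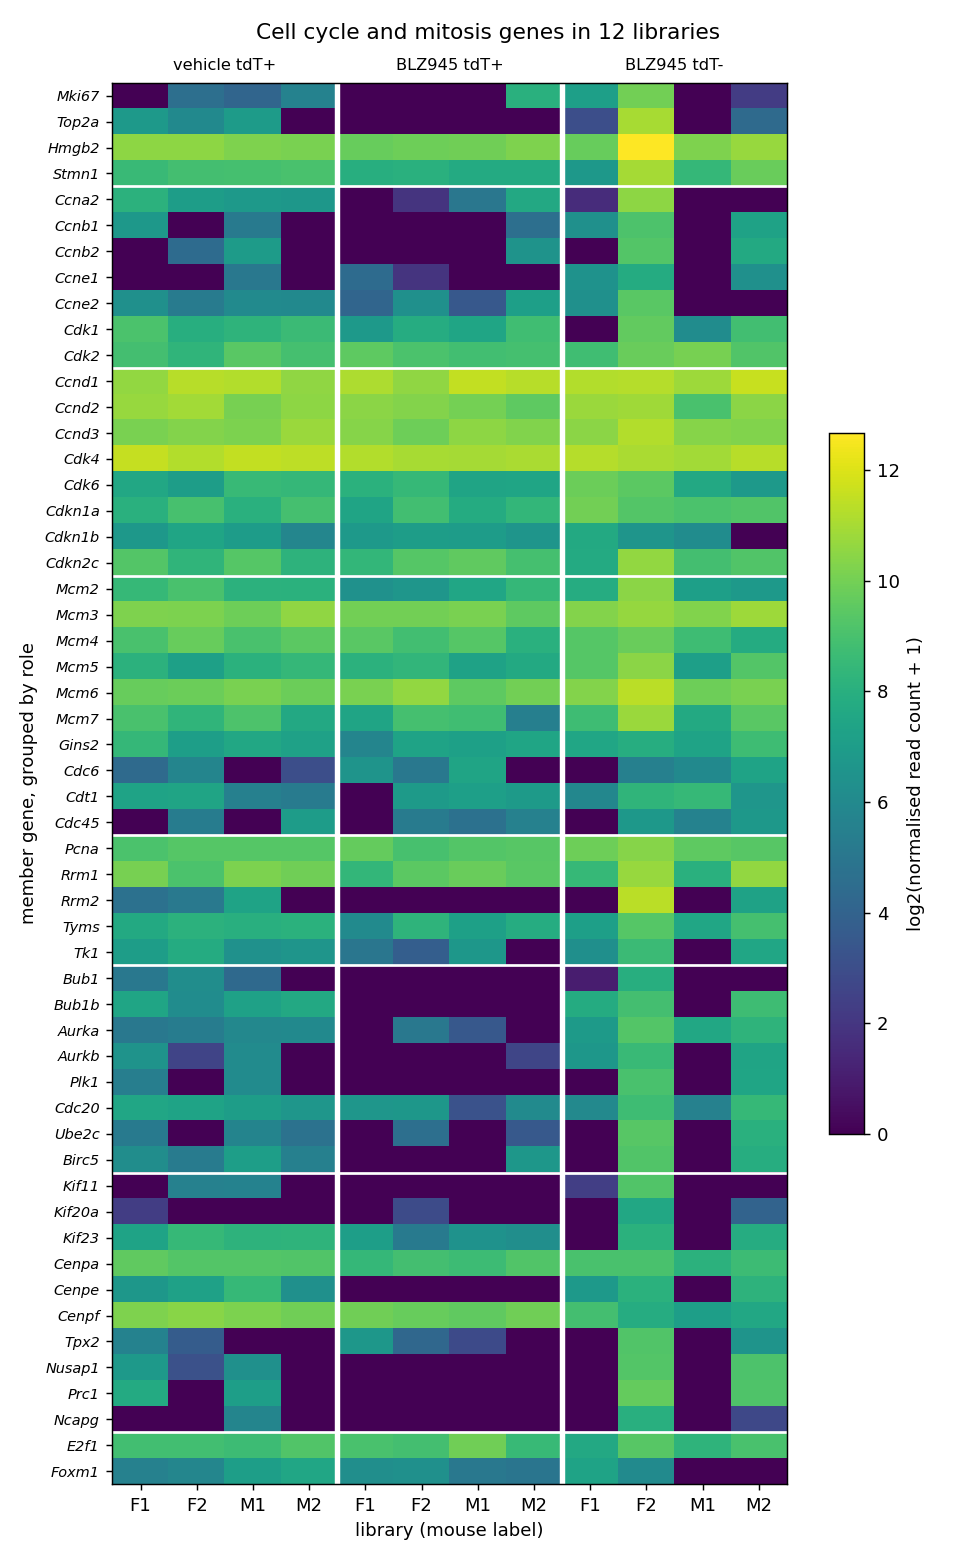
Log2 of the normalised read count plus 1 (colour) of the 54 members (rows, grouped by role and separated by white lines) in 12 libraries (columns, by mouse label and group). Levels are not corrected for gene length and should be compared along rows, where the tdT- library F2 is the highest for 36 members and most rows of mitosis genes are dark in the BLZ945 tdT+ libraries.

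The 4 proliferation markers did not move as a group. Mki67 was at 0, 23.8, 16.5 and 47.8 normalised counts in the vehicle libraries F1, F2, M1 and M2, at 0, 0, 0 and 266 in BLZ945 tdT+ libraries and at 143, 1013, 0 and 3.83 in tdT- libraries. Each group thus had at least 1 library without Mki67, and the highest values were those of the tdT- library F2 and the BLZ945 tdT+ library M2. Top2a, which encodes the topoisomerase that untangles chromosomes, was at 109, 63.4, 124 and 0 in vehicle libraries, at 0 in all BLZ945 tdT+ libraries, and at 7.30, 2029, 0 and 20.1 in tdT- libraries. DESeq2 gave no p for Top2a because the library F2 was an outlier by Cook's distance.

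Stmn1, which encodes the microtubule-destabilising protein stathmin, was called higher in tdT- than in BLZ945 tdT+ libraries only as long as F2 was included. Its normalised counts were 387, 469, 483 and 529 in vehicle, 245, 265, 216 and 217 in BLZ945 tdT+ and 106, 1997, 347 and 880 in tdT- libraries. The tdT- libraries lay on both sides of the others. The log2 fold change was 1.82 ± 0.61 (SE, DESeq2 adjusted p = 0.0461, edgeR adjusted p = 0.180), and without F2 it was 0.91 (DESeq2 adjusted p = 0.429). All 4 BLZ945 tdT+ values were below all 4 vehicle values, with a log2 difference of -0.99 ± 0.61 and an adjusted p of 0.827. Hmgb2, a chromatin protein abundant in dividing cells, was at 1488, 1471, 1175 and 1106 in vehicle, 835 to 1186 in BLZ945 tdT+ and 852, 6510, 1177 and 1670 in tdT- libraries, with an adjusted p of 0.0540 against BLZ945 tdT+ and 0.622 without F2.

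Of the cyclins of S phase and mitosis and their kinases, none of the 7 was called in a comparison. Ccna2 (cyclin A2) was at 281, 133, 112 and 105 in vehicle, at 0, 2.77, 31.8 and 199 in BLZ945 tdT+ and at 2.09, 1470, 0 and 0 in tdT- libraries, so that in the tdT- group it rested on F2 alone. Ccnb1 (cyclin B1) was at 106, 0, 36.4 and 0 in vehicle, at 0 in all BLZ945 tdT+ libraries except M2 with 24.1, and at 80.3, 565, 0 and 157 in tdT- libraries. Ccnb2 (cyclin B2) was at 0, 20.8, 121 and 0, then at 0, 0, 0 and 89.2, and at 0, 616, 0 and 209 in the same order of libraries. The B-type cyclins were thus highest in the tdT- libraries F2 and M2. With the mouse as a block, Ccnb1 was called higher in tdT- than in BLZ945 tdT+ libraries, with a log2 fold change of 5.85 ± 1.95 (adjusted p = 0.0380 in DESeq2 and 0.401 in edgeR).

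Cdk1, the kinase that drives entry into mitosis, was present in 11 of 12 libraries. It was at 538, 244, 299 and 401 in vehicle, 113, 228, 173 and 446 in BLZ945 tdT+ and 0, 796, 69.6 and 461 in tdT- libraries, and the groups overlapped. Cdk2, its partner of S phase, ranged from 313 to 679 in vehicle, 449 to 730 in BLZ945 tdT+ and 438 to 1077 in tdT- libraries. The E-type cyclins Ccne1 and Ccne2, which act at the start of S phase, reached 218 and 688 in the tdT- library F2. In the other 11 libraries Ccne1 was at most 86.6 and Ccne2 at most 141.

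The G1 members were present in all groups, and Cdkn1a was the only one of the 8 called in a comparison. Ccnd1 (cyclin D1) was at 1578, 2495, 2349 and 1521 in vehicle, 2200, 1513, 2927 and 2569 in BLZ945 tdT+ and 2388, 2476, 1816 and 3103 in tdT- libraries. The log2 difference between tdT- and BLZ945 tdT+ libraries was 0.09 ± 0.25 for Ccnd1, 0.32 ± 0.36 for Ccnd2 and 0.38 ± 0.26 for Ccnd3. Ccnd2 ranged from 516 to 1896 and Ccnd3 from 922 to 2396 over the 12 libraries, with the highest Ccnd3 value in the tdT- library F2. Cdk4, the kinase partner of these cyclins, was at 3041, 2395, 2885 and 2697 in vehicle libraries and at 2342, 2090, 1985 and 2125 in BLZ945 tdT+ libraries, without overlap (log2 difference -0.37 ± 0.14, adjusted p = 0.270). In tdT- libraries it was at 2466, 2128, 1904 and 2492. Part of the exons of Cdk4 are shared with Tspan31, and strand was not used in counting. The same limit holds for other members, among them Gins2, which shares 2758 of its 4097 exon bases with Gse1. Kif20a, Ncapg, Ccne2 and Ccna2 share exon bases with Cdc23, Lcorl, Ints8 and Exosc9. Cdk6 was at 113 to 899 in all libraries and highest in the tdT- libraries F1 (899) and F2 (704).

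Among the inhibitors of the G1 kinases, Cdkn1a (p21, a target of p53 that halts the cycle) was higher in every tdT- library than in every tdT+ library. It was at 264, 505, 261 and 481 in vehicle, 166, 454, 223 and 333 in BLZ945 tdT+ and 1019, 623, 537 and 603 in tdT- libraries. Against BLZ945 tdT+ the log2 fold change was 1.24 ± 0.41 (DESeq2 adjusted p = 0.0382, edgeR adjusted p = 0.140). Without F2 it was 1.29 with an adjusted p of 0.0589, and with the mouse as a block 1.28 ± 0.48 with an adjusted p of 0.0789, so that the size was kept and the call was not. Against vehicle it was 0.88 ± 0.41 (adjusted p = 0.228). Cdkn1b (p27) was at 55.0 to 175 in vehicle, 96.5 to 132 in BLZ945 tdT+ and 204, 96.0, 71.7 and 0 in tdT- libraries. Cdkn2c (p18) was at 287 to 648, 340 to 766 and 215 to 1553 in the 3 groups, and neither was called.

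**Figure D3:**
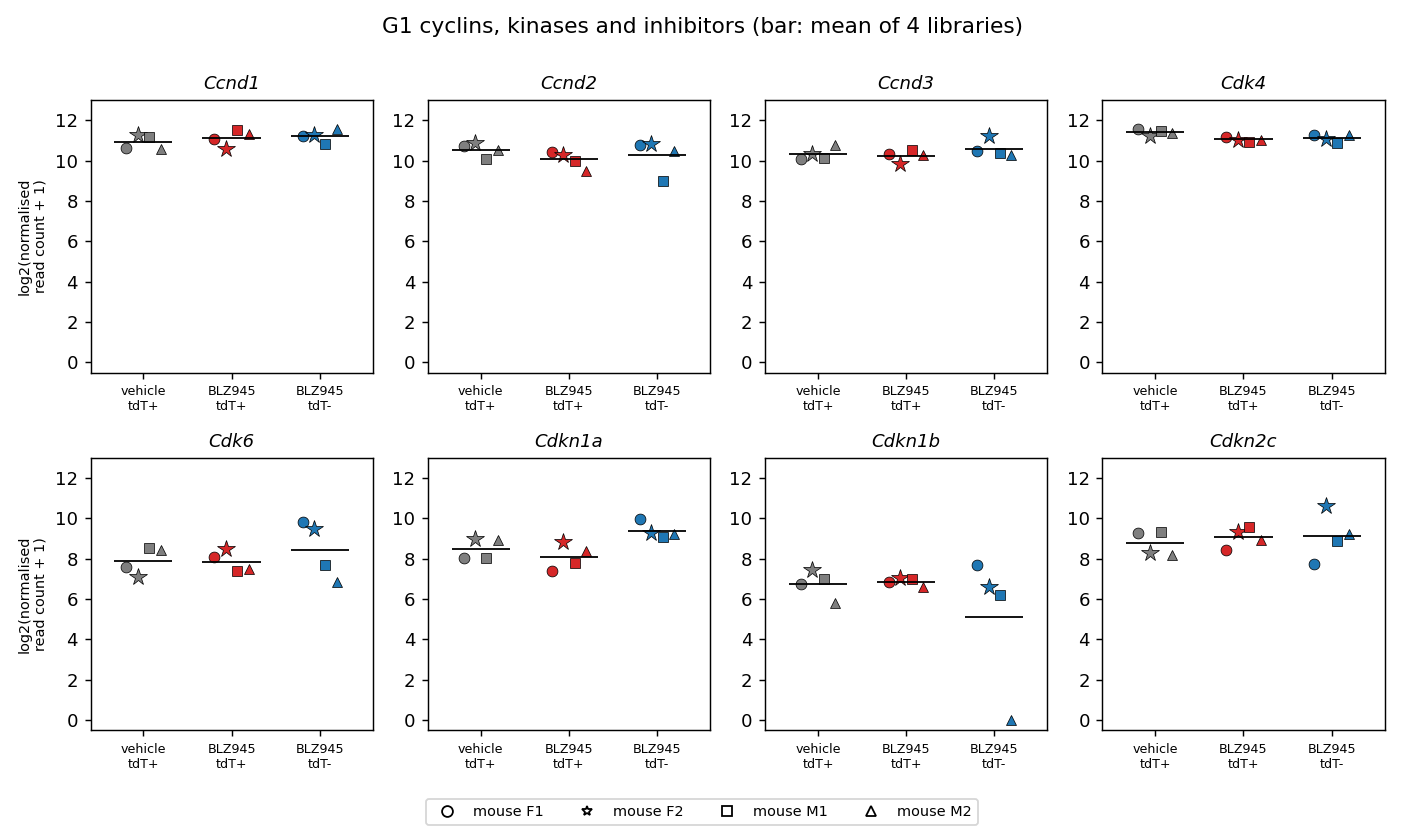
Log2 of the normalised read count plus 1 (vertical axis) of the 8 G1 members in vehicle tdT+ (grey), BLZ945 tdT+ (red) and BLZ945 tdT- (blue) libraries, with 1 symbol for each mouse label and a bar at the mean of the 4 log2 values. Cdkn1a lies higher in all 4 tdT- libraries (537 to 1019 normalised counts) than in the 8 tdT+ libraries (166 to 505), and the other members overlap between tdT- and tdT+ libraries.

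Levels were compared between genes as CPM per kilobase of exon. In vehicle libraries the mean level of Cdk4 was 42.0 and that of Ccnd1 20.9 on this scale, beside 21.6 for Hmgb2, 0.405 for Top2a and 0.109 for Mki67. In BLZ945 tdT+ libraries Cdk4 was at 31.6 and Mki67 at 0.316 CPM per kilobase, and in tdT- libraries at 32.5 and 1.40. The Mki67 mean of BLZ945 tdT+ libraries came from M2 alone, and that of tdT- libraries was 0.230 without F2, where Cdk4 was at 32.6.

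The 10 licensing and helicase members were present in all groups, and none was called in a comparison. Mcm2, Mcm5 and Mcm6 are subunits of the helicase that opens DNA at replication origins. Mcm5 was at 278, 149, 275 and 343 in vehicle, 283, 320, 159 and 209 in BLZ945 tdT+ and 641, 1391, 142 and 610 in tdT- libraries, so that 3 tdT- libraries were above all tdT+ libraries and M1 below them. The log2 difference from BLZ945 tdT+ was 1.52 ± 0.55 (adjusted p = 0.0775), and 0.93 without F2 (adjusted p = 0.40). Mcm2 was at 270 to 529 in vehicle, 82.8 to 344 in BLZ945 tdT+ and 230, 1426, 141 and 111 in tdT- libraries. Mcm6 was at 859 to 1126, 742 to 1591 and 943 to 2611, with the maximum in F2. Mcm3 did not overlap between tdT- (1248 to 1818) and BLZ945 tdT+ libraries (734 to 1113), with a log2 difference of 0.63 ± 0.22 and an adjusted p of 0.0620. Mcm4, Mcm7, Gins2, Cdc6, Cdt1 and Cdc45 overlapped between groups.

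Among the genes of nucleotide supply, Rrm2 set F2 apart most. It encodes the subunit of ribonucleotide reductase that cells make mainly in S phase, whereas the other subunit, from Rrm1, is kept at a steadier level. Rrm2 was at 25.1, 33.7, 161 and 0 in vehicle, at 0 in all BLZ945 tdT+ libraries and at 0, 2589, 0 and 157 in tdT- libraries. Rrm1 was at 1066, 533, 1160 and 962 in vehicle, 332, 708, 861 and 684 in BLZ945 tdT+ and 358, 1682, 264 and 1570 in tdT- libraries. In both genes the tdT- libraries F2 and M2 were above F1 and M1. Pcna, the sliding clamp of DNA polymerase, was at 547 to 647 in vehicle, 505 to 813 in BLZ945 tdT+ and 935, 1306, 746 and 654 in tdT- libraries, where all values were above vehicle (log2 difference 0.56 ± 0.27, adjusted p = 0.255). Tyms and Tk1 were highest in F2 at 643 and 402 and were not called.

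Of the 8 mitotic kinase, spindle checkpoint and anaphase-promoting complex members, 3 were at 0 in all BLZ945 tdT+ libraries, as were 5 of the 10 spindle, kinesin, centromere and condensin members. Bub1b, which encodes the checkpoint kinase BubR1, was at 174, 70.3, 152 and 200 in vehicle, at 0 in all 4 BLZ945 tdT+ libraries and at 223, 477, 0 and 421 in tdT- libraries. It lies at chr2:118428692-118472072 (GRCm39) and shares no exon bases with another gene. All vehicle libraries and all tdT- libraries except M1 thus held Bub1b, and no BLZ945 tdT+ library did. Against a floor of 3 counts per library, Bub1b was at least 50.8-fold lower in BLZ945 tdT+ than in vehicle libraries (DESeq2 adjusted p = 9.94e-07, edgeR adjusted p = 0.229). It was at least 95.4-fold higher in tdT- than in BLZ945 tdT+ libraries (DESeq2 adjusted p = 5.15e-09, edgeR adjusted p = 0.0193), and at least 73.1-fold higher without F2 (adjusted p = 5.98e-07 and 0.0410).

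Cenpe, the kinesin that carries chromosomes to the middle of the spindle, had the same pattern. It was at 102, 150, 364 and 81.1 in vehicle, at 0 in all BLZ945 tdT+ libraries and at 111, 271, 0 and 290 in tdT- libraries. It was at least 59.3-fold lower in BLZ945 tdT+ than in vehicle libraries (DESeq2 adjusted p = 9.94e-07, edgeR adjusted p = 0.229) and at least 57.2-fold higher in tdT- than in BLZ945 tdT+ libraries (adjusted p = 1.80e-07 and 0.0271). Without F2 the last bound was 45.4-fold, with an adjusted p of 7.35e-06 in DESeq2 and 0.0517 in edgeR.

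Aurka, the kinase that matures the spindle poles, was the mitosis member that was higher in all 4 tdT- libraries. It was at 32.1, 38.6, 59.7 and 64.0 in vehicle, 0, 33.2, 10.3 and 0 in BLZ945 tdT+ and 119, 612, 191 and 296 in tdT- libraries. The tdT- libraries did not overlap with the tdT+ libraries, with or without F2, and Aurka was present in the tdT- library M1 where most other mitosis members were at 0. Against BLZ945 tdT+ the log2 fold change was 4.81 ± 1.09 (DESeq2 adjusted p = 0.000430, edgeR adjusted p = 0.0977). It was 4.21 without F2 (DESeq2 adjusted p = 0.0170, edgeR adjusted p = 0.203) and 6.38 ± 1.21 with the mouse as a block (DESeq2 adjusted p = 8.98e-06, edgeR adjusted p = 0.213). Against vehicle it was 2.65 ± 1.07 (adjusted p = 0.135).

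Plk1 and Aurkb rested on 2 and 3 tdT- libraries, and Bub1 on F2 alone. Plk1, a kinase of mitotic entry and exit, was at 41.1, 0, 67.5 and 0 in vehicle, at 0 in all BLZ945 tdT+ libraries and at 0, 526, 0 and 172 in tdT- libraries. Aurkb, the kinase of the chromosomal passenger complex, was at 90.2, 4.95, 69.3 and 0 in vehicle, at 0 except for 5.24 in M2 in BLZ945 tdT+, and at 102, 379, 0 and 169 in tdT- libraries (DESeq2 adjusted p = 0.00967 against BLZ945 tdT+, 0.0967 without F2, edgeR adjusted p = 0.175). Bub1, the partner of BubR1 at the kinetochore, was at 33.1, 74.3, 19.1 and 0 in vehicle, at 0 in BLZ945 tdT+ and at 1.04, 246, 0 and 0 in tdT- libraries, so that its call against BLZ945 tdT+ (DESeq2 adjusted p = 1.20e-13) was lost without F2 (adjusted p = 0.952).

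Birc5 (survivin), which holds the passenger complex at the centromere, was at 74.2, 37.6, 139 and 45.1 in vehicle, 0, 0, 0 and 103 in BLZ945 tdT+ and 0, 599, 0 and 237 in tdT- libraries. Ube2c and Cdc20 serve the anaphase-promoting complex, which ends mitosis by marking cyclins for degradation. Ube2c was at 0 to 51.1 in vehicle, 0 to 24.0 in BLZ945 tdT+ and 0, 656, 0 and 263 in tdT- libraries, and Cdc20 at 101 to 179, 8.20 to 103 and 60.5, 426, 46.4 and 354. None of these 3 was called, and in each the tdT- libraries F2 and M2 were above all tdT+ libraries.

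Among the spindle, kinesin, centromere and condensin members, the bundling proteins Prc1 and Nusap1 showed the same 2 libraries. Prc1, which crosslinks microtubules of the central spindle, was at 212, 0, 136 and 0 in vehicle, at 0 in BLZ945 tdT+ and at 0, 828, 0 and 574 in tdT- libraries. Nusap1 was at 116, 7.92, 82.2 and 0 in vehicle, at 0 in BLZ945 tdT+ and at 0, 626, 0 and 556 in tdT- libraries. In the tdT- library M2 these levels were reached with Mki67 at 3.83, Top2a at 20.1 and Ccna2 at 0, and with all granulocyte precursor markers at 0. Exons of Prc1 overlap those of Rccd1, and exons of Nusap1 those of Oip5. Kif11, Kif20a, Ncapg and Tpx2 reached 603, 194, 250 and 601 in F2. In the other 11 libraries Kif11 was at most 48.5, Kif20a at most 15.3, Ncapg at most 53.7 and Tpx2 at most 103. Kif23, a kinesin of the central spindle, was at 161 to 357 in vehicle and 36.9 to 134 in BLZ945 tdT+ libraries, without overlap (adjusted p = 0.919), and at 0, 267, 0 and 232 in tdT- libraries.

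Cenpf was the member that went the other way. It encodes a large protein of the kinetochore and nuclear envelope, lies at chr1:189372803-189420283 (GRCm39) and shares no exon bases with another gene. It was at 1192, 1347, 1170 and 981 in vehicle, 968, 857, 768 and 966 in BLZ945 tdT+ and 472, 230, 135 and 195 in tdT- libraries. The tdT- libraries were below all tdT+ libraries, and F2 was not set apart. The log2 fold change was -1.79 ± 0.35 against BLZ945 tdT+ (DESeq2 adjusted p = 1.44e-05, edgeR adjusted p = 0.00874) and -2.19 ± 0.35 against vehicle (adjusted p = 2.71e-08 and 0.00221). Without F2 the values were -1.74 and -2.14 (DESeq2 adjusted p = 0.000192 and 1.24e-06). With the mouse as a block the first was -1.94 ± 0.40 (adjusted p = 6.27e-05 in DESeq2 and 0.0871 in edgeR). Cenpf was thus at 768 to 1347 normalised counts in tdT+ libraries, 4 of which held no Mki67. Cenpa, the histone of the centromere, was at 603 to 753 in vehicle, 346 to 602 in BLZ945 tdT+ and 280 to 530 in tdT- libraries, below all vehicle libraries in both BLZ945 groups (adjusted p = 0.767 and 0.323).

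**Figure D4:**
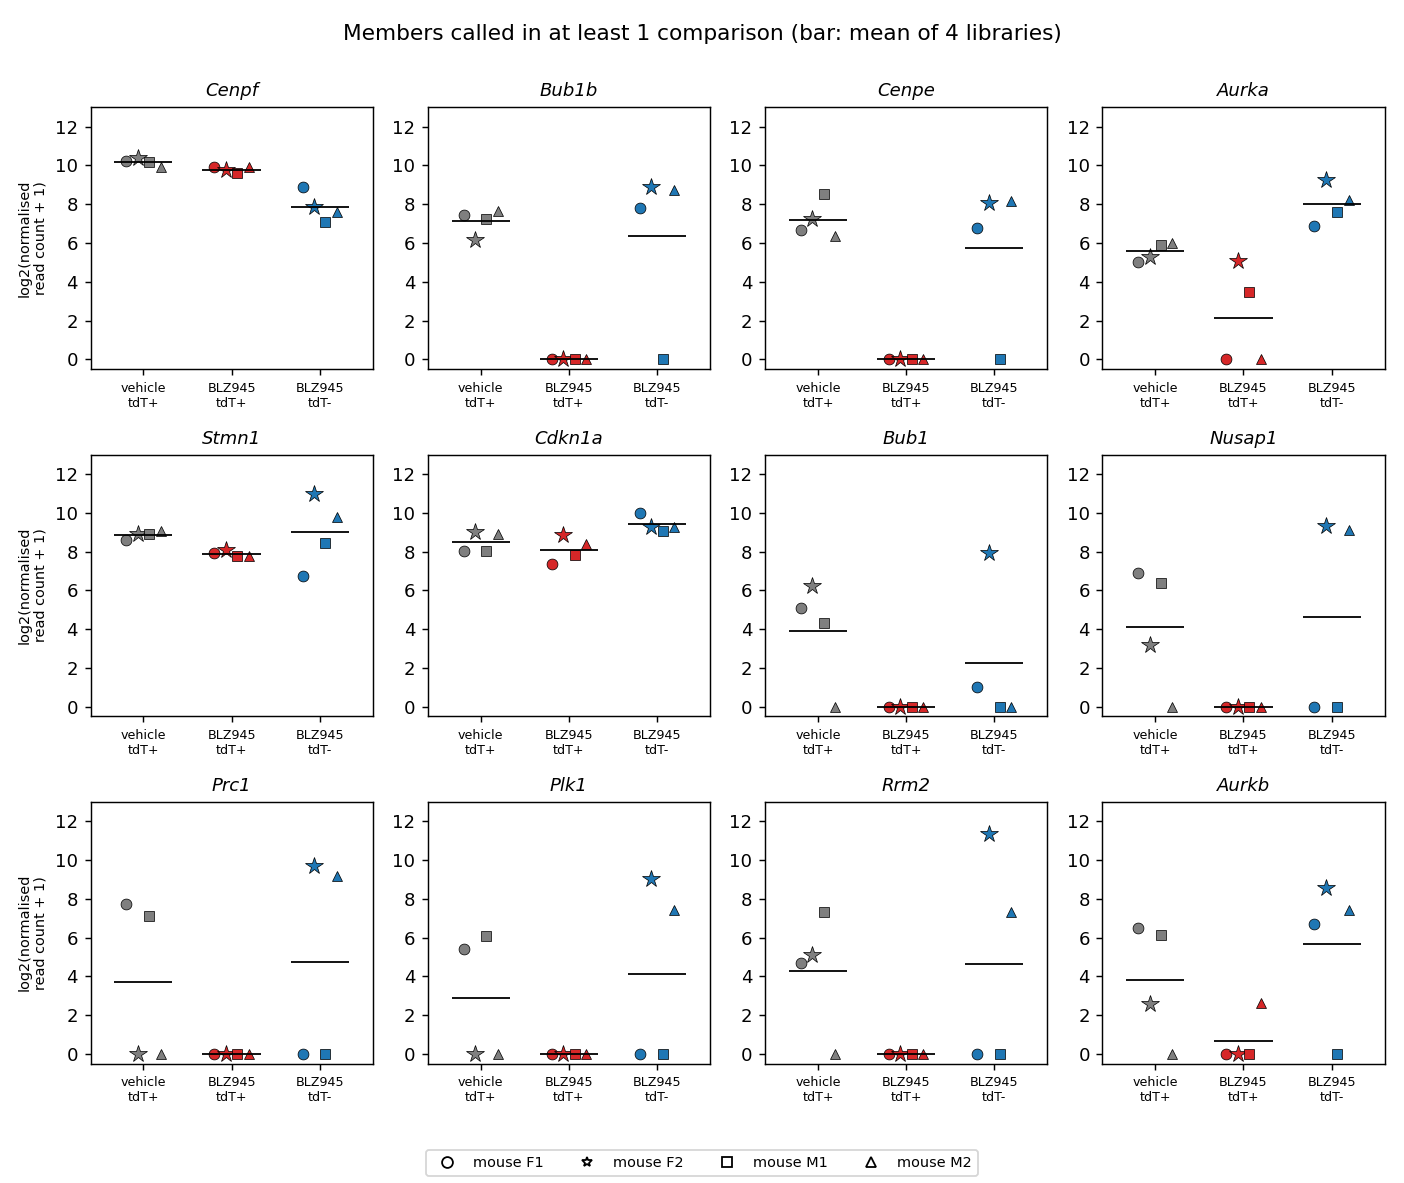
Log2 of the normalised read count plus 1 (vertical axis) of the 12 members called by DESeq2 in at least 1 comparison, in vehicle tdT+ (grey), BLZ945 tdT+ (red) and BLZ945 tdT- (blue) libraries, with 1 symbol for each mouse label and a bar at the mean of the 4 log2 values. Bub1b, Cenpe, Bub1, Nusap1, Prc1, Plk1 and Rrm2 are at 0 in all BLZ945 tdT+ libraries, Cenpf is lower in all tdT- libraries (135 to 472), and Aurka is higher in all tdT- libraries (119 to 612) than in tdT+ libraries.

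The transcription factors E2f1 and Foxm1 were not called. E2f1 was at 417 to 590 in vehicle, 365 to 967 in BLZ945 tdT+ and 199 to 672 in tdT- libraries. Foxm1 was at 47.1 to 179 in vehicle, 29.4 to 82.0 in BLZ945 tdT+ and 160, 65.0, 0 and 0 in tdT- libraries, so that M1 and M2 had no Foxm1 count.

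Between tdT- and BLZ945 tdT+ libraries, DESeq2 called 12 of the 48 members that had an adjusted p, 11 higher and 1 lower in tdT- libraries. Over all genes with an adjusted p, 2.93% were called higher and 3.6% lower. The 11 were Bub1b, Nusap1, Bub1, Aurka, Cenpe, Stmn1, Prc1, Plk1, Aurkb, Rrm2 and Cdkn1a, and the lower member was Cenpf. Shrunken toward 0 with apeglm, the log2 fold changes of Nusap1, Bub1, Prc1, Plk1, Aurkb and Rrm2 were only 0.0214 to 0.0732. Those of Bub1b, Cenpe, Aurka and Stmn1 were 11.7, 10.8, 4.25 and 1.29, that of Cdkn1a was 0.949 and that of Cenpf -1.65. Top2a, Ccna2 and Mcm2 had no p. The median log2 fold change was 1.25 over the 48 members and 0.01 over all genes with an adjusted p. Without F2 it was 0.59 over the 47 members that then had an adjusted p and -0.02 over all genes. Without F2, 7 members remained higher (Bub1b, Nusap1, Aurka, Cenpe, Prc1, Plk1 and Rrm2) and Cenpf lower, beside 2.87% and 4.84% of genes. The calls of Bub1, Stmn1, Aurkb and Cdkn1a ended. edgeR called Bub1b and Cenpe higher and Cenpf lower, beside 1.04% and 1.71% of genes. With the mouse as a block, DESeq2 called 6 of 45 members, of which 5 were higher (Bub1b, Aurka, Cenpe, Aurkb and Ccnb1) and Cenpf was lower, and edgeR called 0, with 10 at an unadjusted p under 0.05. The shares of all genes called in the fits with the block are not given, so these counts have no background beside them.

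Most of the calls concern members at 0 in a whole group, for which a fitted fold change has no finite value. Rrm2, Plk1, Nusap1 and Prc1 had 2 tdT- libraries with counts (F2 and M2) and 2 at 0. They were at least 234-fold, 59.5-fold, 101-fold and 119-fold higher in tdT- than in BLZ945 tdT+ libraries with F2, and at least 17.8-fold, 19.5-fold, 63.1-fold and 65.1-fold without it. Without F2 their tdT- level rested on M2 alone. When both F2 and M2 were left out, Bub1b and Cenpe were still called higher, with F1 the only remaining tdT- library that held them. Cenpf was still called lower, and Ccnb2, Birc5 and Kif23, at 0 in both F1 and M1, were then called lower too. Groups of 4 libraries did not overlap for 3 members that were higher in tdT- libraries (Mcm3, Aurka and Cdkn1a, 5.56% of the 54), beside 4.56% of genes, and for 1 that was lower (Cenpf), beside 4.79%. The same members did not overlap without F2, beside 6.59% and 7.29% of genes. These shares of members were near or below those of all genes.

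Between BLZ945 tdT+ and vehicle tdT+ libraries, DESeq2 called 7 members, all lower after BLZ945 (Bub1b, Nusap1, Bub1, Cenpe, Prc1, Plk1 and Rrm2), and 0 higher, also at an unadjusted p under 0.05. Of all genes, 0.499% were called lower and 0.491% higher. The 7 were at 0 in all 4 BLZ945 tdT+ libraries, and only Bub1b and Cenpe had counts in all 4 vehicle libraries. Nusap1, Bub1 and Rrm2 were at 0 in 1 vehicle library each, and Prc1 and Plk1 in 2. Levels were at least 17.6-fold (Nusap1), 10.8-fold (Bub1), 29.6-fold (Prc1), 9.25-fold (Plk1) and 18.7-fold (Rrm2) lower than in vehicle libraries. Nusap1, Prc1 and Plk1 passed the filter only with the tdT- libraries F2 and M2, which are outside this comparison. With F2 and M2 of tdT- left out, these genes had no DESeq2 adjusted p, and that of Bub1 was 0.19 and of Rrm2 0.101. Bub1b and Cenpe kept their calls (DESeq2 adjusted p = 1.80e-05 and 7.34e-06). Shrunken toward 0 with apeglm, the log2 differences of the 7 lay between -0.0314 (Bub1b) and -0.00368 (Plk1), so none reached 1 in size. edgeR called 0 members in this comparison, with 10 at an unadjusted p under 0.05, all lower, and it called 0.0146% of genes lower and 0.051% higher. The median log2 difference was -0.50 over the 48 members and 0.03 over all genes with an adjusted p.

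In all, 10 of the 54 members were at 0 in the 4 BLZ945 tdT+ libraries (the 7 above, Top2a, Kif11 and Ncapg), and no member was at 0 throughout the vehicle or the tdT- group. Of the 51 members that passed the filter, 8 (15.7%) were at 0 in all BLZ945 tdT+ libraries. Among the 13724 genes tested, 67 (0.488%) were at 0 in all BLZ945 tdT+ libraries, 84 (0.612%) in all vehicle and 148 (1.08%) in all tdT- libraries. A gene at 0 in a whole group passed the filter only through the other groups. Groups did not overlap for 7 members that were lower after BLZ945 (Cenpf, Bub1b, Cenpe, Stmn1, Cenpa, Kif23 and Cdk4, 13.0% of the 54), beside 3.14% of genes, and for 0 that were higher, beside 3.58%. The BLZ945 tdT+ library M2 stood out in this group for some division genes only. The summed S phase and mitosis level of M2 was 467 CPM, within the group range of 433 to 472. Tpx2 was highest in F1 (103), and Aurka (33.2) and Ube2c (24.0) in F2. The library M2 held Mki67 (266), Ccna2 (199), Birc5 (103), Ccnb2 (89.2) and Ccnb1 (24.1), of which Mki67, Birc5, Ccnb1 and Ccnb2 were at 0 in the other 3. Its Bub1b, Cenpe, Plk1, Top2a and Rrm2 were at 0.

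Between tdT- and vehicle tdT+ libraries, DESeq2 called Cenpf, which was lower, and 0 members as higher, with 5 higher at an unadjusted p under 0.05 in DESeq2 and 2 in edgeR. Of all genes, 3.53% were called lower and 3.29% higher. Without F2 Cenpf was again the only call, beside 4.72% of genes called lower and 3.4% higher, and edgeR also called Cenpf alone, beside 1.79% and 1.46%. The median log2 difference was 0.74 over the 48 members and 0.03 over all genes with an adjusted p. Without F2 it was 0.09 over 47 members, so that most of this value rested on F2. Groups did not overlap for 3 members that were higher in tdT- libraries (Pcna, Aurka and Cdkn1a), beside 4.82% of genes, and for 2 that were lower (Cenpf and Cenpa), beside 4.88%. Without F2, the same 3 were higher, beside 7.34%, and 4 were lower (Cenpf, Cenpa, Ccna2 and Mcm2), beside 7.26%. The comparisons share libraries and are not independent.

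Further genes of the cycle were taken from lists outside the 54. Of 48 other mitosis genes, 38 passed the filter, and 37 had an adjusted p. DESeq2 called 6 higher and 0 lower in tdT- than in BLZ945 tdT+ libraries, beside 2.93% and 3.6% of genes. Without F2 it called 3 higher and 1 lower, beside 2.87% and 4.84%, and edgeR called 0, with 9 at an unadjusted p under 0.05. Ndc80, a kinetochore protein that binds microtubules, was at 303, 282, 122 and 6.69 in tdT- libraries and at 0 in all BLZ945 tdT+ libraries (DESeq2 adjusted p = 1.58e-05, edgeR adjusted p = 0.0641), and at 91.2, 26.7, 0.866 and 0 in vehicle libraries. Of 39 other S phase genes, 34 passed the filter, and 3 were called higher and 1 lower in tdT- than in BLZ945 tdT+ libraries. Without F2, 3 were called higher and 2 lower, and edgeR called 0 with all libraries, with 12 at an unadjusted p under 0.05. The lower gene with all libraries was Prim2, a primase subunit, at 105, 129, 41.1 and 38.3 in tdT- and at 187 to 288 in BLZ945 tdT+ libraries (log2 fold change -1.63 ± 0.49, adjusted p = 0.0198, and 0.00217 without F2). Between 20 and 37 of the 48 other mitosis genes reached 10 counts in vehicle libraries, 23 to 28 in BLZ945 tdT+ and 23, 46, 19 and 37 in the tdT- libraries F1, F2, M1 and M2, again with F2 and M2 above F1 and M1. For BLZ945 tdT+ against vehicle, DESeq2 called 2 other mitosis genes lower and 0 higher, beside 0.499% and 0.491% of genes. It called 0 other S phase genes, and edgeR called 0 in both lists. Summed normalised counts overlapped. They were 8534 to 9329 in vehicle and 7510 to 9414 in BLZ945 tdT+ libraries for mitosis genes, and 6216 to 7484 and 5557 to 6508 for S phase genes.

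Of 34 genes of G1 control and quiescence, 33 passed the filter, and 3 were called higher and 3 lower in tdT- than in BLZ945 tdT+ libraries. Without F2, 4 were higher and 4 lower. Against vehicle, 5 were called higher and 2 lower, beside 3.29% and 3.53% of genes, and without F2 5 higher and 4 lower, beside 3.4% and 4.72%. Ccng2 (cyclin G2), an unusual cyclin linked to arrest, was at 3135, 3695, 3046 and 4318 in tdT- libraries, at 1566 to 2303 in BLZ945 tdT+ and at 1033 to 1603 in vehicle libraries. Its log2 fold change against vehicle was 1.44 ± 0.19 (DESeq2 adjusted p = 1.06e-11, edgeR adjusted p = 0.000568), and 1.41 without F2. The median log2 difference of this list from BLZ945 tdT+ was -0.01.

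By library, transcripts of division were thus most abundant in the tdT- library F2, together with granulocyte precursor, neutrophil, monocyte and erythroid transcripts. The tdT- library M2 held 39 of 46 S phase and mitosis members at 10 counts or more, with the granulocyte precursor markers at 0 but with little Mki67. The sum of its stem and progenitor markers was at the level of the tdT- group, while 1 of them, Gata2 (114), was higher than in any other library. The tdT- library F1 held 28 of 46, with Mki67, Bub1b, Aurka and Aurkb among them, and M1 held 22, with Aurka as its highest mitotic kinase. BLZ945 tdT+ libraries held 25 to 29 of 46, and vehicle libraries 31 to 42. Transcript counts do not give the number of dividing cells.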

How the data were processed

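The authors deposited counts of reads per gene, not normalised and not pooled over replicates. Per the file headers, featureCounts 2.0.6 assigned reads to gene names by exon, using GENCODE M33 after filtering plus the tdTomato sequence. Strand was ignored and reads with several alignments were not counted. Processing notes of the submitters also name bcl2fastq 2.20, STAR 2.7.11a and DESeq2 1.46.0. The deposited gene length, the summed exon bases, was used for levels per kilobase. Coordinates of genes are GRCm39, and promoter windows are RefSeq windows on GRCm38.p6.

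The analysis used R 4.3.3. A gene was dropped where 9 or more of the 12 libraries (75%) were under 10 counts, which left 13724 of 56735. DESeq2 1.42.0 (two-sided Wald test, group as the only term, all 12 libraries) was the main test, as in the methods of the study, with Benjamini-Hochberg adjustment over all genes. A gene was called at an adjusted p of at most 0.05. An adjusted p given as missing stayed missing. The quasi-likelihood test of edgeR 4.0.16 was an alternative. Its adjusted p is given beside the DESeq2 values because DESeq2 made calls for genes at 0 in a whole group. Normalised counts are counts divided by DESeq2 size factors. Folds against a group at 0 are lower bounds from 3 counts per library, for counting error only. Scripts were tested on simulated data.

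All 54 members were described by role. A fixed panel and each called member were given by library. Of genes outside the 54, those called were named if their log2 fold change, shrunken with apeglm 1.24.0, was 1 or more in either direction. The members and lists were chosen with earlier results of these data known. The markers of other cell types came from fixed lists. Of these, the macrophage, microglia, neutrophil, granulocyte precursor, monocyte, erythroid and stem and progenitor lists are described in the text.

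The tdT+ and tdT- libraries of a BLZ945 mouse are paired by the mouse label. Their deviations from the group means correlated between -0.00463 and 0.0352. Vehicle mice share only a label with BLZ945 mice. Replicates were separate mice, and no pair was close to sampling noise (over 18 pairs, the lowest chi-square was 48.7 per degree of freedom). In 1 vehicle column the library number and the mouse label disagree, and it was assigned to M2 by its library number. All columns were assigned.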

Additional observations from a re-analysis of the deposited data

Results flagged for a closer look

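In groups of 4 libraries, the gap between the most extreme library and its nearest neighbour, divided by the range of the group, was compared with Dixon's 95% critical value for 4 values. Of 152 sets of 4 values (54 members in 3 groups, leaving out sets with no spread), 29 exceeded it, while chance gives about 1 in 20, or 7.6. Sets of near-zero counts exceed it easily, because a single library with counts gives a ratio of 1.

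In 13 of the 29 sets the extreme library was the tdT- library F2, always as the highest. The ratios were 0.859 for Mki67, 0.99 for Top2a, 0.856 for Hmgb2, 0.999 for Ccna2, 0.882 for Ccne2 and 0.849 for Ccnd3. They were 0.91 for Mcm2, 0.939 for Rrm2, 0.996 for Bub1, 0.993 for Kif11, 0.921 for Kif20a, 0.842 for Tpx2 and 0.977 for Ncapg. These span proliferation markers, S phase and mitosis members and 1 G1 member, Ccnd3. No other tdT- library was extreme in any set.

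In BLZ945 tdT+ libraries the library M2 was the highest in 6 sets, with a ratio of 1 for Mki67, Ccnb1, Ccnb2, Aurkb and Birc5, where the other 3 libraries were at 0, and of 0.84 for Ccna2. For Aurkb the value of M2 was 5.24 normalised counts. The library F1 was the highest for Ccne1 (0.863, at 20.2 normalised counts) and Tpx2 (0.83) and the lowest for Cdt1 (0.836, at 0). The library F2 was the highest for Kif20a (1, at 6.45 normalised counts).

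In vehicle libraries F1 was the highest for Ccna2 (0.84), Cenpa (0.92) and Kif20a (1, at 4.01 normalised counts) and the lowest for Pcna (0.886). M1 was the highest for Ccne1 (1, at 32.9 normalised counts) and Ncapg (1, at 53.7).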

How the results depend on the processing

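Except where given above, the counts of called members below stand without the share of all genes called in the same fit. They describe how calls moved and cannot be set against a background. Of tdT- against BLZ945 tdT+, 12 members were called by DESeq2 with all libraries. The number was 3 with edgeR, 5 with the 8 libraries of the comparison alone, 6 with the replicate block (the pairing by mouse), 0 with the replicate block in edgeR (10 at an unadjusted p under 0.05), 2 in edgeR without F2, and 6 without F2 and M2. Between 8 and 15 were called when 1 library was left out, the 8 without F2 and the 15 without M1 of tdT- or M2 of BLZ945 tdT+. Of BLZ945 tdT+ against vehicle, 7 were called. The number was 4 with a stricter filter on low counts, 4 with the replicate block, 0 with edgeR, with the replicate block in edgeR and in edgeR without F2 (10, 10 and 9 at an unadjusted p under 0.05), and 3 without F2 and M2 of tdT-. It was 7 to 10 with 1 library left out. Of tdT- against vehicle, 1 was called. The number was 2 with its 8 libraries alone, 5 with the replicate block, 0 with the replicate block in edgeR (2 at an unadjusted p under 0.05), 2 without both libraries of the BLZ945 mouse F2, 6 without F2 and M2, and 1 or 2 with 1 library left out, the 2 without M1 of vehicle or M1 of tdT-. In comparisons with vehicle the block joins different animals that share a label. The block in edgeR, edgeR without F2, and leaving out F2 and M2 were alternatives chosen after seeing the data. Cenpf kept its call in 18 of 19 alternatives in each of the comparisons where it was called, as did Bub1b for tdT- against BLZ945 tdT+. Cenpe kept it in 17, Aurka in 15, Aurkb in 13, Cdkn1a in 7 and Stmn1 in 5 of 19. Stmn1 was the only called member to change direction, to a log2 fold change of -0.0557 without F2 and M2. The cause of these changes was not tested. The mean summed S phase and mitosis level was 634 CPM in vehicle (516 without Hmgb2, Stmn1 and Pcna, and 625 to 644 with 1 library left out), 460 in BLZ945 tdT+ (371, and 456 to 469) and 938 in tdT- (733, and 554 to 1120). With DESeq2 size factors in place of library totals it was 617, 461 and 947. The mean number of members detected was 45.25, 35 and 41.5 at 10 counts, 46, 36 and 42 at 5 counts and 43.25, 32.25 and 41 at 30 counts. At depths of 19969308 to 23395058 counts, a member at 0 can still have been present in the cells, and the floor of 3 counts covers counting error only.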
